A study of Mus musculus with 13 samples.

Results

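Perivascular adipose tissue, the fat around blood vessels, was sequenced in bulk from 13 mouse samples, and 7 of the 13 libraries were rich in the transcript of the IgA heavy chain. The members were chosen by a measured value: a library counted as IgA-rich when Igha reached 100 CPM (counts scaled to the total of the library) or more, and as IgA-poor below that. The IgA-rich side held all 4 TS-R libraries, whose recipients got splenocytes from mice with type 2 diabetes, NTS-R replicates 2 and 3, whose donors were diabetic and lacked Nlrp3, and NS-R replicate 3, whose donor lacked Nlrp3. The 6 IgA-poor libraries were NTS-R replicate 1, NS-R replicates 1 and 2 and all 3 WTS-R libraries, whose donors were wild type. All samples are labelled C57BL/6, and their genotype label is WT for TS-R and WTS-R and Nlrp3 KO for NTS-R and NS-R, with no word on which mouse of the transfer it refers to. The labels give no age, sex, collection time, extraction date or batch. They do not say that replicates came from separate animals, so p-values cover the spread among these samples alone, which may be technical.

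IgA is the antibody class that plasma cells secrete mainly at mucosal surfaces, where the J chain encoded by Jchain links IgA monomers into dimers. The circadian clock, which runs in fat as in most tissues, is a loop in which BMAL1 (encoded by Arntl) with CLOCK or NPAS2 binds E-box sequences and drives genes such as Dbp, Per3, Ciart and Bhlhe41, while other genes of the loop peak at another time of day. Fibrillar collagens are built by fibroblasts and vessel wall cells, cross-linked by lysyl oxidases, and laid down with elastin and fibrillin in the adventitia and the fat stroma.

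Igha itself defined the sides, so its levels are a description. Igha was at 490.4, 1148, 2296 and 1892 CPM in TS-R replicates 1 to 4. NTS-R replicates 2 and 3 had 305.6 and 324.8 CPM, against 4.52 CPM in NTS-R replicate 1. In NS-R it was at 460.6 CPM in replicate 3, against 1.73 and 7.69 CPM in replicates 1 and 2. WTS-R had 0.661, 3.16 and 8.44 CPM. The lowest IgA-rich library, NTS-R replicate 2, stood 36.2 times above the highest IgA-poor library, WTS-R replicate 3, and no library lay between them. The split therefore coincided with the donor label in TS-R and WTS-R and cut through both groups of Nlrp3 knockout donors. In TS-R against WTS-R, IgA content and donor diabetes cannot be told apart.

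Libraries held 14216706 to 29800052 counts on the IgA-rich side and 15867697 to 37011122 counts on the IgA-poor side, and 3 counts corresponded to 0.081 to 0.211 CPM. Mitochondrial transcripts took 6.11% to 36.7% of the counts in IgA-rich libraries and 21.1% to 27.8% in IgA-poor ones, so separation under other scalings is stated too. Several libraries stood apart in tissue content. Xist, made from the inactive X chromosome of females, was at 459.5 CPM in NS-R replicate 3 and 805 CPM in TS-R replicate 3, both IgA-rich, and at most 0.352 CPM elsewhere. Skeletal muscle genes summed to 17337 CPM in TS-R replicate 1, and airway genes to 7184 and 13703 CPM in the IgA-poor NS-R replicates 1 and 2, against 2.83 to 5.92 CPM in the other 11 libraries. Ucp1 and Adipoq, of brown and general adipocytes, were detected in every library, at 366.4 to 1918 and 438.5 to 1439 CPM in IgA-rich libraries and at 1475 to 3921 and 1231 to 1813 CPM in IgA-poor ones. Nlrp3 was low throughout. The TS-R libraries had 0.537, 1.35, 3.55 and 1.16 CPM of it, NTS-R 1.22, 0.483 and 0.352 CPM, NS-R 1.03, 0.456 and 1.36 CPM, and WTS-R 0.601, 0.226 and 0.693 CPM, so libraries labelled Nlrp3 KO overlapped those labelled WT and the level does not check the labels. In bulk tissue, fewer cells of a type and less RNA per cell cannot be told apart.

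Of 17097 genes tested other than immunoglobulin genes, 38 lay higher in every IgA-rich library than in any IgA-poor library, which is 0.222% of those tested, and 77 lay lower in every IgA-rich library, which is 0.45%. The 115 genes, 0.673% of those tested, are called followers here. Since the split was drawn from a measured value, no test was made of it. Of the 38 higher followers, 20 also separated the sides under TMM scaling, under edgeR's RLE scaling and with mitochondrial genes left out of the totals. So did 47 of the 77 lower followers. Most gaps were small: the nearest libraries of the sides differed by 1.5 times or more in 6 higher and 7 lower followers. Genes of the circadian clock and of the extracellular matrix recurred among them.

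Jchain had the widest gap of all followers. TS-R libraries had 129.4, 510.2, 2192 and 594.8 CPM of it, NTS-R replicates 2 and 3 had 99.1 and 160.9 CPM, and NS-R replicate 3 had 179.2 CPM. The IgA-poor libraries had 34.4 CPM in NTS-R replicate 1, 4.81 and 5.53 CPM in NS-R replicates 1 and 2, and 2.52, 1.41 and 2.65 CPM in WTS-R. NTS-R replicate 1 thus stood above the other IgA-poor libraries in Jchain but not in Igha. Derl3, a component of the degradation machinery of the endoplasmic reticulum that plasma cells express strongly, was the other follower among 14 tested plasma cell genes, at 1.48 to 38.5 CPM against 0.567 to 1.45 CPM. Thus 2 of the 14 were higher followers, beside 0.222% of all genes tested. Derl3 lost its separation under at least one of the other scalings. The plasma cell regulators and surface proteins did not follow the split: Prdm1 was at 1.66 to 12.4 CPM in IgA-rich libraries and 0.721 to 2.61 CPM in IgA-poor ones, and Sdc1 at 8.35 to 33.0 against 7.69 to 28.5 CPM. Mzb1, a chaperone of antibody assembly, was at 0.101 CPM in TS-R replicate 1, within the IgA-poor range. Counts of antibody genes can be shared between related segments. The IgG2c heavy chain Ighg2c was at 89.5 to 8839 CPM in IgA-rich libraries and 0.12 to 3.94 CPM in IgA-poor ones, without overlap. Nor did the IgG1 heavy chain Ighg1 overlap, at 9.45 to 4269 against 0 to 0.228 CPM. The kappa light chain Igkc was at 377.9 to 20658 against 8.05 to 149.8 CPM. All immunoglobulin genes together took 0.121% to 5.47% of the counts against 0.00417% to 0.0588%, so the sides differed in more than IgA. The IgM heavy chain Ighm overlapped, at 26.6 to 1251 against 16.7 to 184 CPM, and within NTS-R it was lower in replicates 2 and 3 (26.6 and 66.9 CPM) than in replicate 1 (184 CPM).

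None of 14 B cell genes and none of 16 T cell genes separated the sides. Over all genes tested, 0.222% were higher and 0.45% lower followers. A count of 0 in lists this short therefore does not set these genes apart from the rest. Summed over the 14 B cell genes, TS-R had 52.5, 782.8, 3867 and 302.4 CPM. The other IgA-rich libraries had 16.9 and 20.1 CPM in NTS-R and 37.5 CPM in NS-R, which is among or below the IgA-poor values of 74.7 CPM in NTS-R, 31.4 and 35.3 CPM in NS-R, and 21.0, 26.7 and 34.7 CPM in WTS-R. The 3 highest sums were those of TS-R replicates 2, 3 and 4. T cell genes summed to 42.9, 534.4, 1352 and 142.3 CPM in TS-R, to 20.6 and 17.6 CPM in the IgA-rich NTS-R libraries and to 39.0 CPM in the IgA-rich NS-R library. They summed to 42.8 CPM in NTS-R replicate 1, 20.6 and 25.5 CPM in NS-R replicates 1 and 2, and 15.9, 16.5 and 21.9 CPM in WTS-R. Within NTS-R, all 14 B cell genes and 15 of 16 T cell genes were lower in both IgA-rich libraries than in replicate 1, where 49.3% of all tested genes had that order. Under TMM these were 14 of 14 and 14 of 16, beside 31.1% of all genes. In NS-R the T cell genes lay the other way. There 13 of 16 were higher in replicate 3 than in replicates 1 and 2 and 0 lower, beside 16.5% and 53.3% of all genes. With TMM, 15 of 16 were higher, beside 32.2% of all genes. Of the 14 B cell genes, 7 were higher and 5 lower in NS-R replicate 3, and under TMM 8 and 3. Madcam1, an adhesion molecule that brings lymphocytes into mucosa, was a follower on few counts. It was at 0.141 to 13.3 CPM in IgA-rich libraries and 0 to 0.063 CPM in IgA-poor ones, and values of up to 0.211 CPM are within what 3 counts give. Glycam1, from the high endothelial venules of lymph nodes, overlapped. TS-R replicates 2, 3 and 4 had 74.3, 1166 and 8.54 CPM of it, against at most 0.116 CPM in the other 10 libraries.

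**Figure D1:**
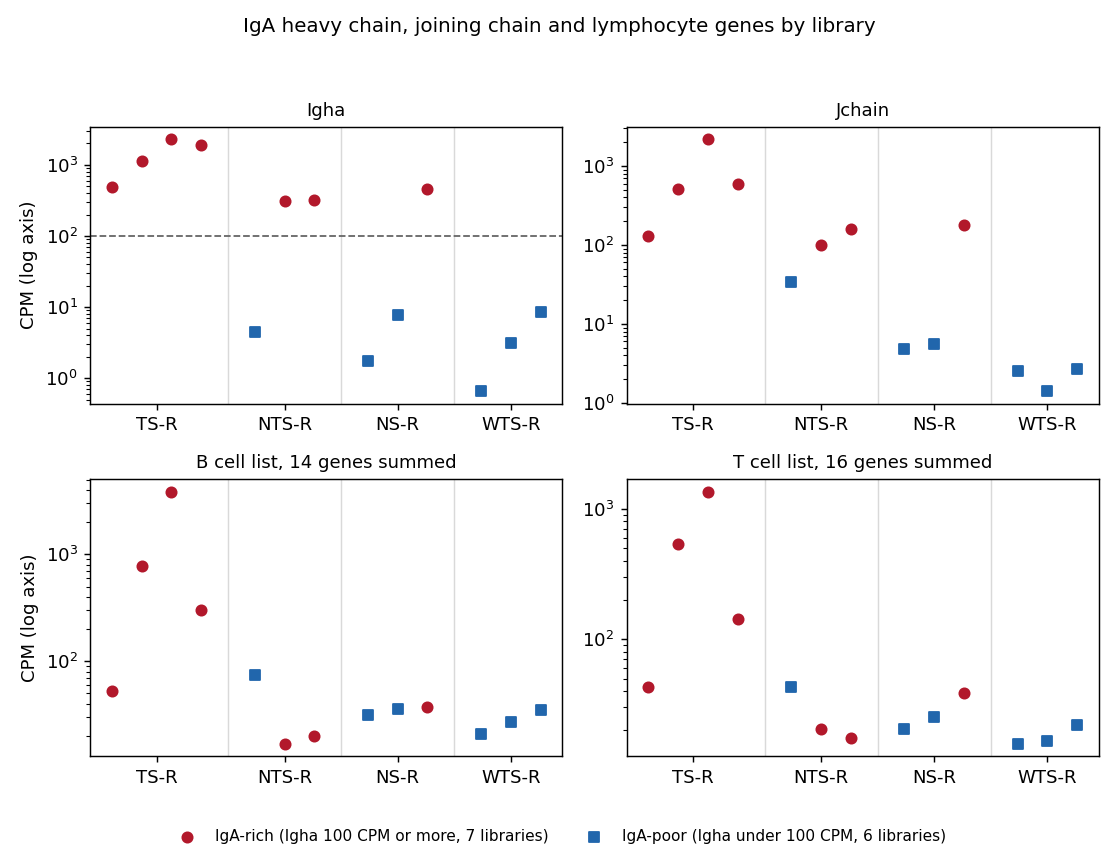
CPM on log axes of Igha, Jchain, 14 summed B cell genes and 16 summed T cell genes, 1 point per library in replicate order within each labelled group, with circles for the 7 IgA-rich and squares for the 6 IgA-poor libraries and a dashed line at the 100 CPM limit. Igha, which defines the sides, and Jchain do not overlap between them, while the B and T cell sums are highest in TS-R replicates 2, 3 and 4 and overlap in the other libraries.

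Genes of the circadian clock recurred among the higher followers. Of 12 tested genes of the arm to which Dbp belongs, 5 were higher followers (Dbp, Tef, Per3, Ciart and Bhlhe41) and none was a lower one, beside 0.222% of all genes tested. The median log2 ratio of the side medians was 1.31 for the 12 genes and 0.04 for all genes tested. Dbp, Per3 and Bhlhe41 kept their separation under all 3 other scalings, and Tef and Ciart did not. The list was chosen with results of these libraries known, so its direction is not independent evidence. Without TS-R replicate 3, which had the lowest Dbp, Tef and Per3 of the IgA-rich side, 7 of the 12 separated, Hlf and Nr1d2 in addition, and a count can by construction only stay or grow when a library is left out.

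Dbp, a transcription factor of the PAR bZIP family that acts through D-box sequences, was at 29.2 CPM at the lowest, 61.3 at the median and 101 at the highest in IgA-rich libraries. In IgA-poor libraries these were 3.59, 12.0 and 18.2 CPM, so the side medians differed 5.12-fold. Dbp in NS-R was at 42.3 CPM in replicate 3, against 15.4 and 18.2 CPM in replicates 1 and 2. The NTS-R libraries had 89.0 and 52.8 CPM in replicates 2 and 3, against 13.4 CPM in replicate 1. Its relatives Tef and Hlf, of the same family, were at 113.8 to 346.4 CPM against 44.9 to 108.7 CPM for Tef, and at 16.7 to 46.4 CPM against 12.9 to 21.5 CPM for Hlf, whose sides overlapped. Per3, a member of the Period family of the negative limb, had a lowest, median and highest value of 41.2, 57.0 and 111 CPM in IgA-rich libraries and 10.1, 17.3 and 28.3 CPM in IgA-poor ones. Bhlhe41 (also called DEC2), a repressor that binds E-boxes, had 14.1, 22.2 and 46.2 CPM in IgA-rich libraries and 4.29, 5.94 and 7.18 CPM in IgA-poor ones, the widest gap of the clock genes. Ciart, a repressor of the BMAL1 and CLOCK complex, had 3.93, 12.5 and 20.9 CPM against 1.57, 2.14 and 3.16 CPM.

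Not every gene of this arm separated. Per1 was at 73.5 to 232 CPM in IgA-rich libraries and 88.6 to 139 CPM in IgA-poor ones. Per2 was at 15 to 110.9 against 4.6 to 42.4 CPM, and Nr1d1, the nuclear receptor REV-ERB alpha that represses Arntl, at 41.2 to 190.0 against 27.5 to 111.6 CPM. Within NS-R, 11 of the 12 genes were higher in replicate 3 than in replicates 1 and 2, where 16.5% of all tested genes had that order. Within NTS-R, 11 of the 12 were higher in replicates 2 and 3 than in replicate 1, where 18.4% of all genes had it. For the 5 followers the choice fixes this order. Under TMM all 12 genes had it in both groups, beside 32.2% of all genes in NS-R and 34.1% in NTS-R.

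In the other arm, Nfil3 and Npas2 were lower followers and Cry1 a higher one. Nfil3, a bZIP repressor that competes with DBP at D-boxes, had a lowest, median and highest value of 6.97, 9.68 and 16.4 CPM in IgA-rich libraries and 29.7, 38.6 and 43.7 CPM in IgA-poor ones. Npas2, a partner of BMAL1, had 0.483, 1.09 and 1.24 CPM in IgA-rich libraries and 2.43, 5.14 and 7.86 CPM in IgA-poor ones. Both kept their separation under all 3 other scalings. Arntl, which encodes BMAL1, had 4.03, 5.82, 15.96 and 3.15 CPM in the TS-R libraries, 0.828 and 2.39 CPM in NTS-R replicates 2 and 3, and 3.13 CPM in NS-R replicate 3. Its IgA-poor values were 12.7 CPM in NTS-R replicate 1, 17.5 and 12.9 CPM in NS-R replicates 1 and 2, and 13.5, 16.5 and 18.9 CPM in WTS-R. TS-R replicate 3 alone put Arntl into the IgA-poor range, and without that library Arntl separated too. Cry1, a repressor of the negative limb that peaks later than Dbp, was a higher follower, at 10.3 to 17.9 CPM against 5.84 to 9.58 CPM, but not under every other scaling. Of the 6 tested genes of this arm, 2 were lower followers (0.45% of all genes) and 1 a higher one (0.222% of all genes), and Clock was among those that overlapped. Their summed level was 79.1 to 109.4 CPM in IgA-rich libraries and 120.3 to 167.8 CPM in IgA-poor ones, without overlap.

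**Figure D2:**
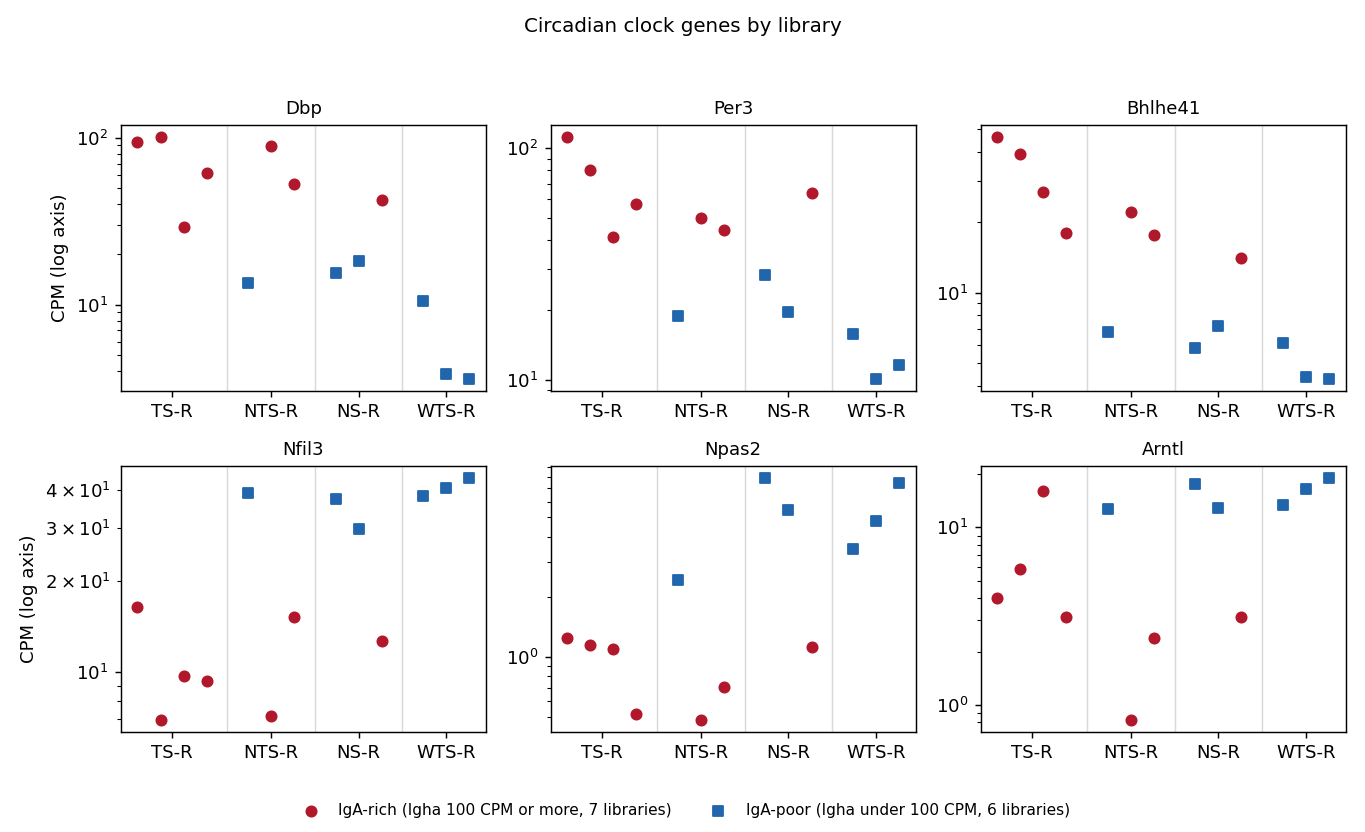
CPM on log axes of 6 circadian clock genes, 1 point per library in replicate order within each labelled group, with circles for the 7 IgA-rich and squares for the 6 IgA-poor libraries. Dbp, Per3 and Bhlhe41 lie higher in all IgA-rich libraries and Nfil3 and Npas2 lower, while Arntl of TS-R replicate 3 (15.96 CPM) lies within the IgA-poor range.

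The promoters of 4 clock followers are shown because they carry the elements through which the clock acts on its own genes. They run from 250 bases before to 50 bases after the gene's start in RefSeq (GRCm38.p6), read 5′ to 3′ on the gene's strand, with each E-box (CACGTG) or D-box (TTANGTAA) in capitals. Both strands were searched, and the motifs do not overlap each other in these windows. The windows are chr3:95882179-95882478 for Ciart, chr6:145865371-145865670 for Bhlhe41, chr4:151044616-151044915 for Per3 and chr10:85185005-85185304 for Cry1, all on the minus strand.
Ciart promoter: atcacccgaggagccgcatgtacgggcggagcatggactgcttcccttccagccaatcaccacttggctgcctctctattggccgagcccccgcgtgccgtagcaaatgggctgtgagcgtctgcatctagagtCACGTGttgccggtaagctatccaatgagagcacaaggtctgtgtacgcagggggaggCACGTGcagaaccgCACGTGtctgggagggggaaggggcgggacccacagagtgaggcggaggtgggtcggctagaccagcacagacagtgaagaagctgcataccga
Bhlhe41 promoter: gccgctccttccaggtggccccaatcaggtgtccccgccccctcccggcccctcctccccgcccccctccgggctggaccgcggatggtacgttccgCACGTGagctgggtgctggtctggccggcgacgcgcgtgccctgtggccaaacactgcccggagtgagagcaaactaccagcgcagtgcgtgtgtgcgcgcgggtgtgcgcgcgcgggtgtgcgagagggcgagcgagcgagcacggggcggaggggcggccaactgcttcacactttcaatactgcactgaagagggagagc
Per3 promoter: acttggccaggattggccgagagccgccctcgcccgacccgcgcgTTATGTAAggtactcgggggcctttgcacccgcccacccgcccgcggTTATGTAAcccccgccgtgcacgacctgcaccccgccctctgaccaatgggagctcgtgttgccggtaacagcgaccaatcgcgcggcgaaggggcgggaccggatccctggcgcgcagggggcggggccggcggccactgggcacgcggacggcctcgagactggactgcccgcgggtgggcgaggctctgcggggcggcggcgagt
Cry1 promoter: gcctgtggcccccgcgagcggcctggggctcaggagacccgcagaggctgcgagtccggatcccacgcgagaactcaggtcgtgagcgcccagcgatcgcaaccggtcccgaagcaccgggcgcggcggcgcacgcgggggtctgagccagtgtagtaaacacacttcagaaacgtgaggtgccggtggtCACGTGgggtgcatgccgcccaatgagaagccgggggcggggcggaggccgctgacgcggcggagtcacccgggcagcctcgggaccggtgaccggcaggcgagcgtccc

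Ciart held 3 E-boxes, Bhlhe41 and Cry1 held 1 each, and Per3 held 2 D-boxes and no E-box. Tef had an E-box in each of its 2 RefSeq promoters. Neither motif was in the Dbp, Nfil3 or Npas2 window. An E-box was in the windows of 4 of the 10 genes of the Dbp arm that had a RefSeq promoter and of 1 of 5 genes of the Arntl arm. Counted by promoter, an E-box was in 5 of 12 and 1 of 8, and a D-box in 1 of 12 and 0 of 8. Of all 32851 RefSeq promoters of this length, 7.15% held an E-box and 2.32% a D-box. A match describes the letters of the window and is not shown to be a bound site.

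Extracellular matrix genes recurred among the lower followers. Of 20 tested matrix genes, 13 were lower in every IgA-rich library and none was higher, beside 0.45% of all genes tested that were lower followers. Of these, 10 kept their separation under all 3 other scalings, and TMM scaling gave 14. The median log2 ratio of the side medians was -0.85 for the 20 genes. Their summed level was 1595 to 3334 CPM in IgA-rich libraries, with a median of 2763, and 4288 to 6027 CPM in IgA-poor ones, with a median of 5177. Like the clock list, the matrix list was chosen with results of these libraries known, so its direction is not independent evidence. All 20 genes were lower in NS-R replicate 3 than in NS-R replicates 1 and 2, where 53.3% of all tested genes had that order. In NTS-R, 17 of 20 were lower in replicates 2 and 3 than in replicate 1, where 49.3% of all genes had it. For the 13 followers the choice fixes this order. Under TMM the counts were 20 and 17 of 20, beside 34.0% and 31.1% of all genes.

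Col3a1, the main chain of type III collagen of vessels and loose tissue, had the widest gap of all lower followers. It had a lowest, median and highest value of 148.7, 269.5 and 382.3 CPM in IgA-rich libraries and 722, 903.8 and 1177 CPM in IgA-poor ones, so the IgA-poor median was 3.35 times the IgA-rich one. Col1a1 and Col1a2 encode the chains of type I collagen. Col1a1 had 70.3, 101 and 134 CPM in IgA-rich libraries and 232, 330.3 and 416 CPM in IgA-poor ones, and Col1a2 had 114.1, 174.9 and 210.7 CPM against 286, 389 and 522 CPM. The type V chains Col5a1 and Col5a2, which set fibril diameter, and the type VI chain Col6a1, of the network around cells, followed with narrower gaps. Col5a1 was at 18.3 to 47.1 against 57.1 to 101 CPM, Col5a2 at 26.9 to 56.3 against 68.1 to 111 CPM, and Col6a1 at 70.6 to 145 against 174 to 203 CPM. Of 36 tested collagen chain genes in all, 8 were lower followers and none was higher, beside 0.45% and 0.222% of all genes tested. All of the 8 but Col8a1 are also among the matrix followers counted above. The ratio of side medians was below 1 in 28 of the 36, beside 44.5% of all genes tested. Of the 8 followers, 6 kept their separation under all 3 other scalings.

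Enzymes and partners of collagen fibres lay the same way. The lysyl oxidase Lox was at 8.18 to 24.2 CPM in IgA-rich libraries and 29.0 to 36.5 CPM in IgA-poor ones, and Loxl1, which acts on elastin, at 10.6 to 28.0 against 37.8 to 63.4 CPM. Loxl2 was at 7.43 to 17.3 against 20.2 to 28.2 CPM and did not keep its separation under every other scaling. All 5 tested lysyl oxidases had a lower median on the IgA-rich side, as did 44.5% of all genes. Elastin (Eln) was at 31.1 to 58.0 against 64.7 to 226.6 CPM. Fibrillin (Fbn1), the scaffold of elastic microfibrils, was at 32.9 to 71.7 against 76.2 to 125.4 CPM. Mfap4, a microfibril-associated protein, was at 3.24 to 9.25 against 12.5 to 31.0 CPM. Sparc, a collagen-binding glycoprotein, was at 364.4 to 1397 against 1458 to 1827 CPM, with nearly touching sides. Creb3l1 (OASIS), a transcription factor of the endoplasmic reticulum known to drive type I collagen in bone, was at 4.33 to 6.49 against 9.21 to 16.8 CPM. Matrix members that overlapped included Fn1, at 109 to 211 against 159 to 318 CPM, and decorin (Dcn), at 255 to 583 against 354 to 610 CPM, so the separation was not shared by all stromal products. Mesothelial genes, from the lining of the body cavities, were listed together with epithelial genes, and this list moved partly with the matrix. Of 10 tested, Msln alone was a lower follower, at 2.93 to 37.0 against 37.8 to 112 CPM, beside 0.45% of all genes. All 10 were lower in NS-R replicate 3 than in replicates 1 and 2. In NTS-R, 8 of 10 were lower in replicates 2 and 3 than in replicate 1. Of all tested genes, 53.3% and 49.3% had these orders. TMM gave the same counts, beside 34.0% and 31.1%. Between TS-R and WTS-R, 2 were higher and 1 lower without overlap, beside 18.5% and 2.42% of all genes. The median log2 ratio of the side medians was -1.50. The summed list was at 29.8 to 184 CPM in IgA-rich and 165 to 659 CPM in IgA-poor libraries. Its highest sums, 456 and 659 CPM, were in NS-R replicates 1 and 2, the libraries with airway transcripts. Airway epithelium and mesothelium cannot be told apart in this list. The part of mesothelium in the matrix difference was not tested.

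**Figure D3:**
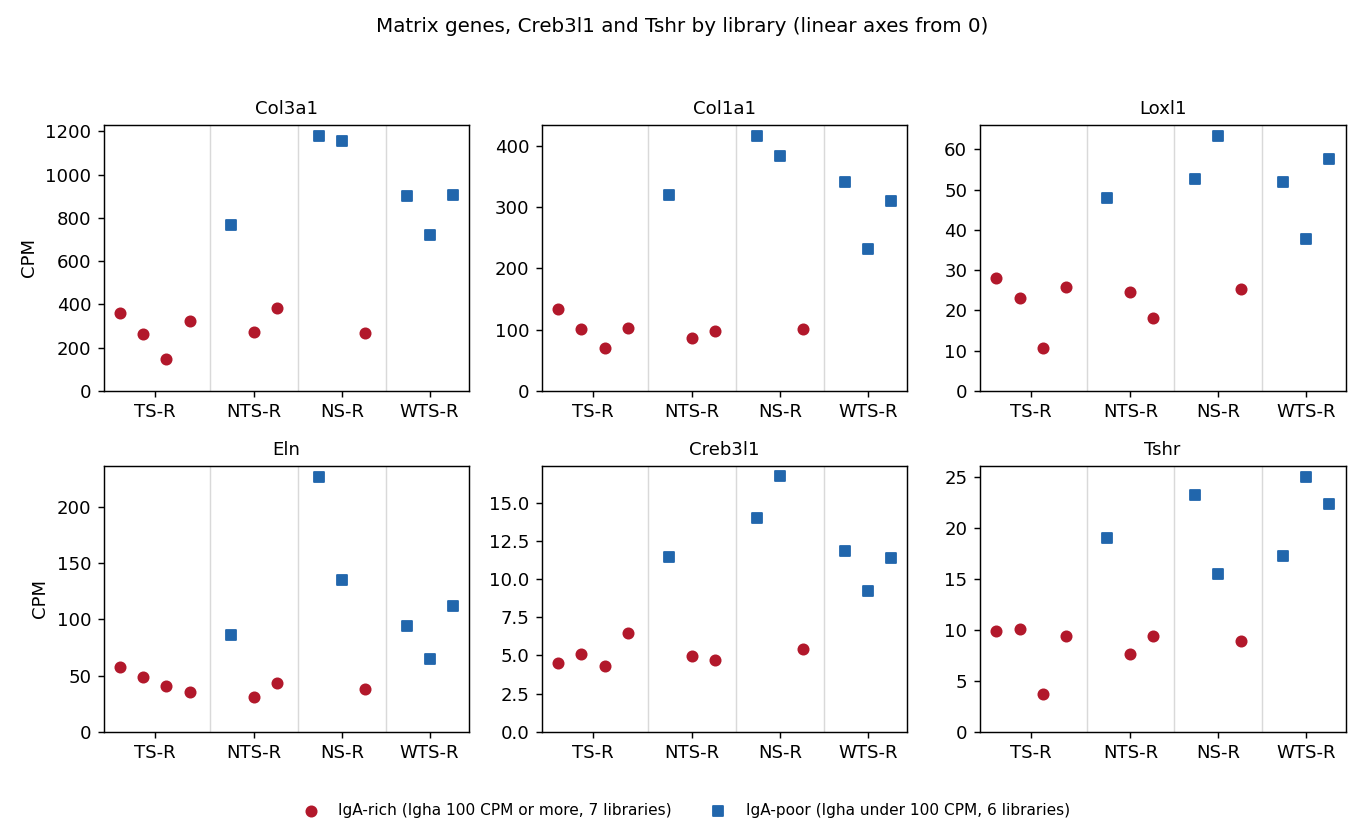
CPM on linear axes from 0 of the matrix genes Col3a1, Col1a1, Loxl1 and Eln, the collagen regulator Creb3l1 and the receptor gene Tshr, 1 point per library in replicate order within each labelled group, with circles for the 7 IgA-rich and squares for the 6 IgA-poor libraries. In NS-R and NTS-R the IgA-rich libraries lie at the level of TS-R and the IgA-poor ones at or above the level of WTS-R for Col3a1, whose values are 148.7 to 382.3 against 722 to 1177 CPM.

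Among the remaining followers were transporters, channels and signalling genes. Slc20a1, a phosphate transporter, was at 28.1 to 95.8 CPM in IgA-rich libraries and 18.3 to 22.1 CPM in IgA-poor ones. The potassium channel gene Kcnj15 was at 3.08 to 8.997 against 0.42 to 2.08 CPM. Ass1, an enzyme of arginine synthesis whose reads processed gene copies may share, was at 7.81 to 27.4 against 2.26 to 6.32 CPM. Rasgrp2, an activator of the GTPase Rap1 in blood cells, was at 50.5 to 177.8 against 37.9 to 47.8 CPM. These 4 kept their separation under all 3 other scalings, as did Baiap3 and Mreg, while Prkce, Alpk1 and Pan3 did not. On the lower side, Tshr, the thyrotropin receptor, which brown fat also expresses, was at 3.72 to 10.1 CPM in IgA-rich libraries and 15.5 to 25.0 CPM in IgA-poor ones, and kept its separation. The kinase gene Dapk1 did so too. Klb, the co-receptor of the hormone FGF21, was at 7.23 to 26.2 against 29.1 to 51.6 CPM and did not. Anxa8, an annexin, was at 4.64 to 30.1 against 35.7 to 84.4 CPM and kept its separation.

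Genes that separate TS-R from WTS-R were then followed into NS-R and NTS-R, whose libraries did not choose them. Between TS-R and WTS-R, 3160 genes (18.5% of those tested) were higher in all TS-R libraries and 413 genes (2.42%) lower. Of the 3160, 155 (4.91%) were also higher in the IgA-rich libraries of both NS-R and NTS-R, and 5.38% of all tested genes had that order, so the share was at the background. Of the 413, 182 (44.1%) were also lower in both, beside 30.8% of all tested genes. The balance of directions depends on scaling. With TMM, 1397 genes were higher and 1408 lower, so that 49.8% of the separated genes were higher against 88.4% with column totals, and the median log2 ratio of all genes in TS-R over WTS-R was 0.02 against 0.25. Under TMM, 12.8% of the higher genes kept both orders beside 14.9% of all genes, and 20.7% of the lower genes beside 14.1%. Of the genes in the lists, 7 of the 12 of the Dbp arm and 13 of the 20 matrix genes separated TS-R from WTS-R and kept both orders. Of all 17097 genes, 155 did so as higher and 182 as lower genes. Followers have all these orders by definition. The 13 matrix genes and 5 of the 7 are the followers given above, so NS-R and NTS-R are no separate check of them. Of the B cell, T cell, neutrophil and cell division genes, 11 of 14, 11 of 16, 10 of 11 and 13 of 14 were higher in all TS-R libraries than in WTS-R. None of these kept both orders, beside 4.91% of the 3160 genes.

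**Figure D4:**
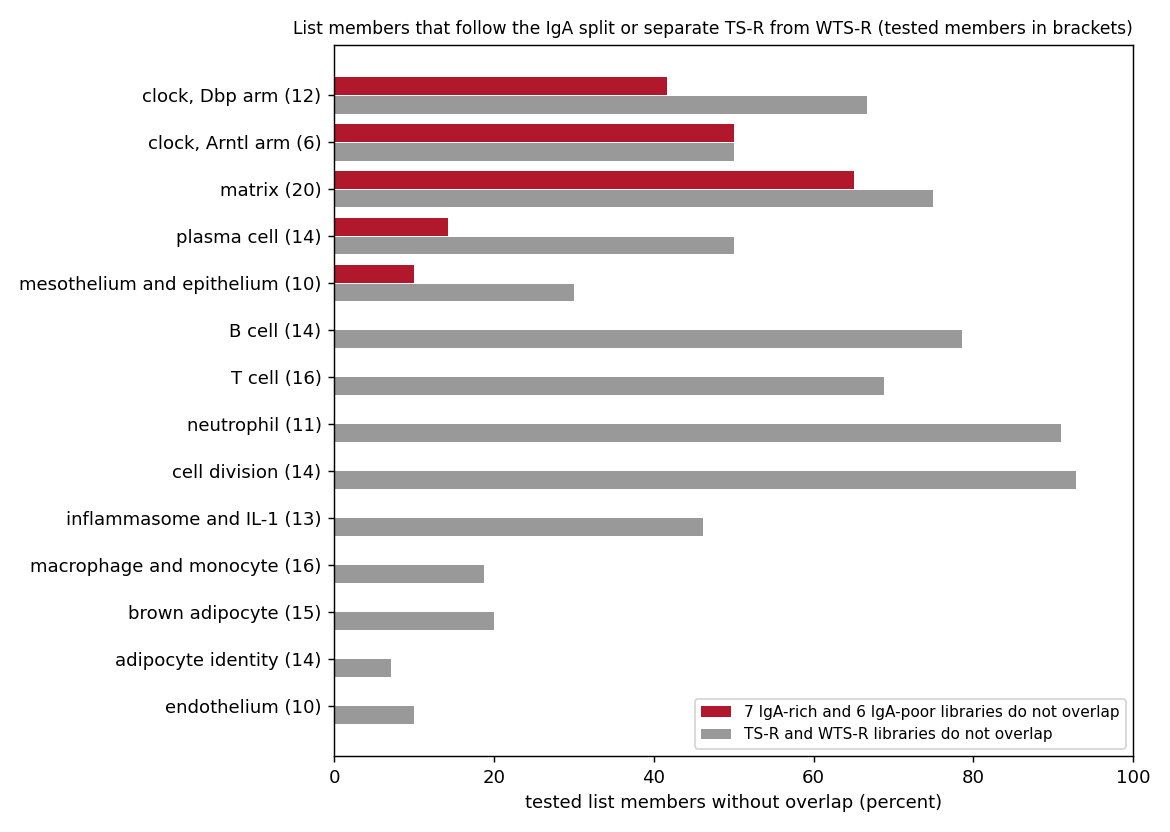
Share of the tested members of 14 gene lists, in percent, that do not overlap between the 7 IgA-rich and 6 IgA-poor libraries (upper bars, red) or between TS-R and WTS-R (lower bars, grey), in either direction, with the number of tested members in brackets. Both bars are long for the clock and matrix lists, while the B cell, T cell, neutrophil and cell division lists have a grey bar alone.

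The labelled comparisons were tested with edgeR's quasi-likelihood fit with Benjamini-Hochberg adjustment over 17270 genes. In TS-R against WTS-R no gene passed an FDR of 0.05 (0% of those tested), and the lowest FDR was 0.0624. Before adjustment, 2622 genes (15.2%) were higher and 1221 (7.07%) lower with p under 0.05. DESeq2 called 1566 (9.07%) higher and 340 (1.97%) lower, and limma 2332 (13.5%) higher and 1484 (8.59%) lower. In NTS-R against NS-R no gene passed in edgeR, and before adjustment 216 genes (1.25%) were higher and 883 (5.11%) lower with p under 0.05. DESeq2 called 4 (0.0232%) higher and 204 (1.18%) lower, and limma called 0 higher and 12 (0.0695%) lower. The difference between both comparisons passed for no gene, the lowest FDR being 0.0823. Before adjustment, 3165 genes (18.3%) had p under 0.05 for it. Fitted log2 fold changes of followers are given without a p, because these libraries chose them. In TS-R against WTS-R they were 8.31 (SE 1.69) for Jchain, 3.30 (SE 0.74) for Dbp, 2.26 (SE 0.52) for Per3 and 2.44 (SE 0.50) for Bhlhe41. Nfil3 had -2.23 (SE 0.46), Npas2 -2.66 (SE 0.60), Col3a1 -1.89 (SE 0.46), Col1a1 -1.80 (SE 0.47), Loxl1 -1.42 (SE 0.38) and Tshr -1.65 (SE 0.40). In NTS-R against NS-R, where each group holds both sides, they were nearer to 0 for all 10 genes: Jchain 0.60 (SE 1.23), Dbp 1.07 (SE 0.70), Per3 0.04 (SE 0.51), Bhlhe41 0.83 (SE 0.50), Nfil3 -0.33 (SE 0.48), Npas2 -1.92 (SE 0.66), Col3a1 -0.80 (SE 0.50), Col1a1 -0.79 (SE 0.50), Loxl1 -0.59 (SE 0.40) and Tshr -0.35 (SE 0.42). The choice favours this pattern, because followers separate TS-R from WTS-R and divide both other groups by definition. The difference between both comparisons passed for none of the 10, as for no gene tested. Genes outside the followers had edgeR log2 fold changes in TS-R against WTS-R of 4.97 (SE 0.99, FDR 0.0624) for Cd3g, a T cell receptor subunit, 5.32 (SE 1.20, FDR 0.0624) for Cd79a, a B cell receptor subunit, and 1.42 (SE 0.68, FDR 0.240) for Nlrp3. DESeq2 and limma called Cd3g (adjusted p 1.7e-07 and 0.0052) and Cd79a (2.4e-05 and 0.0030), and over all alternatives their adjusted p ran up to 0.245. Without TS-R replicate 3 the edgeR log2 fold changes were 3.92 for Cd3g, 3.69 for Cd79a and 0.74 for Nlrp3. In NTS-R against NS-R, Cd3g had an edgeR log2 fold change of 0.26 (SE 0.90, FDR 0.999).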

How the data were processed

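The authors deposited a table of whole-number counts per gene, 1 column per library (TRIzol extraction and an ABclonal mRNA-seq paired-end kit, per the labels' protocols). HISAT2 and featureCounts were used, per the submitters' processing notes. The sources used here name no genome build, annotation or strand setting, so overlapping and antisense genes cannot be told apart. Of 34013 gene IDs, 33302 were matched to a symbol and 711 were not.

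CPM is counts over the column total. filterByExpr kept 17270 genes, of which 173 immunoglobulin genes were left out of the split, leaving 17097. A follower is a gene whose CPM does not overlap between the sides. Libraries were taken as sides by Igha and as groups by the sample titles. edgeR 4.0.16 in R 4.3.3 (quasi-likelihood, TMM, 1 fit of all 13 libraries) tested TS-R against WTS-R and NTS-R against NS-R. The common biological coefficient of variation was 0.389. On simulated data, 68% of 4-fold and 17% of 2-fold changes were recovered in TS-R against WTS-R (17024 genes) and 67% and 12% in NTS-R against NS-R (17037 genes). No pair of libraries of a group agreed within sampling noise (lowest chi-square per degree of freedom 32.4). Floors of 3 counts cover counting error only.

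Alternatives were DESeq2 1.42.0, limma 3.58.1 with voomWithQualityWeights, other scalings, no filter, other Igha limits, a wider gap, a replicate block and leaving out libraries. Leaving out mitochondrial genes, NS-R replicates 1 and 2 together, and the list counts without single libraries were added after seeing the data. The members and the 29 gene lists were chosen with earlier results of these data known. Genes were named by a rule: Igha, Jchain, Xist, Glycam1, Scgb1a1, Myh4, Ucp1, Adipoq, Col3a1 and Nlrp3; per direction, the 15 followers with a median of 5 CPM or more on the higher side and the widest gap, on log2 of CPM plus 0.5; and up to 6 members per list, followers first. The other genes given by value (such as Arntl, Nr1d1, Per1, Per2, Eln, Sparc, Loxl2, Fbn1, Fn1, Dcn, Klb, Anxa8, Ighg1, Ighg2c, Ighm and Igkc) were chosen after their values were seen. Some genes that the rule names are not reported here. Promoters are RefSeq's for GRCm38.p6.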

Additional observations from a re-analysis of the deposited data

Results flagged for a closer look

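Within the 4 TS-R libraries, replicate 3 stood apart from the other 3 in 5 of 50 genes checked by Dixon's test. Chance flags about 1 in 20 groups. The B cell coactivator gene Pou2af1 was at 352.2 CPM in TS-R replicate 3, the highest of TS-R, and the B cell surface gene Ms4a1 at 410.4 CPM. Derl3 was at 38.53 CPM and Madcam1 at 13.33 CPM, also the highest. Tshr was the lowest, at 3.717 CPM. Derl3, Madcam1 and Tshr were followers of the split. Xist, Glycam1, Ighg2c and Myh4 were not among the genes checked. Within TS-R, Myh4 was highest in replicate 1, at 3227 CPM, and the others were highest in replicate 3. The count of flagged genes therefore depends on which genes were checked.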

How the results depend on the processing

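No library lay between Igha limits of 50 and 200 CPM, so both give the same sides as 100 CPM, with 38 higher and 77 lower followers. A gap of 1.5 times or more left 6 higher and 7 lower. TMM gave 124 lower followers and edgeR's RLE scaling 117. Leaving out both libraries high in Xist gave 124 higher followers, and leaving out NS-R replicates 1 and 2 gave 164 higher and 176 lower. Leaving out 1 library gave 40 to 103 higher followers (103 without NS-R replicate 1, 79 without NS-R replicate 3, 61 without TS-R replicate 3, and 69, 87 and 64 without NTS-R replicates 1, 2 and 3). It gave 84 to 274 lower ones (274 without TS-R replicate 1, 167 without WTS-R replicate 2, 141 without NS-R replicate 1). Fewer libraries constrain a gene less by construction. With TMM, 291 lower genes kept both orders, against 182. Without TS-R replicate 3 in the choice, 218 higher and 200 lower genes kept them.

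In TS-R against WTS-R, edgeR called 0 genes, DESeq2 1906, limma 3816, edgeR with no filter 889, and edgeR without both libraries high in Xist 50. Leaving out 1 library gave 0 to 1906 calls (1906 without TS-R replicate 1 and 1238 without replicate 4 of that group). In NTS-R against NS-R these were 0 for edgeR, 208 for DESeq2, 12 for limma, 126 with no filter and 758 without both libraries high in Xist, and 0 to 563 with 1 library left out (563 without NS-R replicate 3). The cause was not tested. The titles do not say whether equal replicate numbers pair the samples. Deviations of same-numbered libraries correlated at -0.19, -0.07 and -0.13 in TS-R and WTS-R and at 0.19, 0.06 and 0.20 in NTS-R and NS-R. So few values cannot decide whether the samples were paired. A fit with the replicate block called 784 genes for TS-R against WTS-R, and 0 for NTS-R against NS-R. Of the 11 genes given by fold change in NTS-R against NS-R, 4 changed sign, without a call, in 8 gene and setting pairs. With 1 library left out, the log2 fold change of Per3 ranged over -0.28 to 0.82, that of Dbp over 0.44 (without NTS-R replicate 2) to 1.79 (without NS-R replicate 3), that of Bhlhe41 over 0.48 to 1.42 (the same libraries), and those of Col3a1, Col1a1, Loxl1, Tshr and Npas2 over -1.24 to -0.53, -1.54 to -0.48, -1.01 to -0.33, -0.75 to -0.033 and -2.84 to -1.42 (all lowest without NTS-R replicate 1). That of Cd3g ranged over -0.0575 to 0.48, that of Nfil3 over -1.08 to 0.0745 and that of Jchain over -0.0031 to 4.43 (the highest without NS-R replicate 3). Of the 13 genes given by fold change for TS-R against WTS-R, none changed sign. Low genes such as Madcam1 rest on few counts.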

Other observations

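Interferon-stimulated genes, which respond to antiviral signalling, were ordered with IgA inside the groups of Nlrp3 knockout donors. Of 14 tested, 13 were lower in NS-R replicate 3 than in NS-R replicates 1 and 2 and 14 were lower in NTS-R replicates 2 and 3 than in NTS-R replicate 1, where 53.3% and 49.3% of all tested genes had these orders. Under TMM these were 10 and 14 of 14, beside 34.0% and 31.1% of all genes. None separated TS-R from WTS-R, where 18.5% of all genes were higher and 2.42% lower without overlap. None was a follower, beside 0.222% higher and 0.45% lower followers over all genes. The lack of followers in a list this short does not set these genes apart from the rest. Isg15, a ubiquitin-like protein, was at 13.1 CPM in NS-R replicate 3, against 37.6 and 18.2 CPM in NS-R replicates 1 and 2. The NTS-R libraries had 9.94 and 4.22 CPM in replicates 2 and 3, against 97.0 CPM in replicate 1. The TS-R libraries had 13.2 to 22.3 CPM, and WTS-R had 209.7, 10.9 and 28.4 CPM. The 14 genes summed to 223.9 to 574.7 CPM in IgA-rich libraries and 251.2 to 2704 CPM in IgA-poor ones, with the highest values in WTS-R replicate 1 (2704 CPM) and NTS-R replicate 1 (2073 CPM).

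Macrophage and monocyte genes lay lower in both IgA-rich NTS-R libraries than in NTS-R replicate 1 for all 16 tested members, where 49.3% of all tested genes had that order (15 of 16 under TMM, beside 31.1%). In NS-R, 10 of 16 were lower in replicate 3 than in both other libraries, which is near the 53.3% of all genes. Between TS-R and WTS-R, 2 of 16 were higher and 1 lower without overlap, beside 18.5% and 2.42% of all genes. Their sum was 377.2 to 2600 CPM in IgA-rich libraries and 431.7 to 1273 CPM in IgA-poor ones.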
